A study of Mus musculus with 12 samples.

Results

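Autophagy core genes were followed in the kidneys of mice given the antibiotic colistin. The group comprised Ulk1, Becn1, Atg5, Atg7, Atg12, Map1lc3a, Map1lc3b, Gabarap, Gabarapl1 and Sqstm1. All 10 were found by gene symbol among the 30869 symbols of the array, where 15 of its 45281 probes carried them. The samples were whole kidneys of 12 male C57BL/6 mice aged 10 weeks, profiled singly on Illumina MouseWG-6 v2 BeadChips, on which each probe is read as the mean brightness of its beads. Of these, 6 control mice received 0.1% saline 2 times a day and 6 received colistin at 16 mg/kg each day, split over 2 doses. Colistin exposure lasted 72 hours, and the labels name no engineered allele in either group. The comparison asks whether the transcripts of these genes differ between colistin and saline kidneys.

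Autophagy delivers cytoplasm and damaged organelles to the lysosome in a double-membrane vesicle, the autophagosome. A kinase complex around Ulk1 starts the process, a lipid kinase complex that contains Becn1 marks the site, and a conjugation chain of Atg proteins attaches LC3 and GABARAP proteins to the growing membrane, where they recruit cargo receptors such as Sqstm1. In kidney tubule cells basal autophagy is known to maintain mitochondria and to be induced by toxic and ischaemic injury. Much of the pathway is controlled after translation, by phosphorylation, lipid attachment and lysosomal breakdown, which transcript signals do not measure.

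The arrays detected between 14661 and 16154 probes each at a detection p under 0.01. The array of saline mouse 5 was dim, with a raw signal at its 95th percentile of 475 against 752 or more on every other array. Saline mouse 2 stood farthest out on the first principal component, which held 49.2% of the variance (64.6, at most 28.7 elsewhere). Kidney identity was plain: all 7 proximal tubule markers, among them Lrp2 and Slc34a1, passed the detection filter, as did Umod of the thick ascending limb. No lymphocyte or neutrophil marker passed it. Each of 2 BeadChips held 3 mice of each group, and saline and colistin arrays alternated along it, so the effects of position and of treatment cannot be told apart. Replicates are separate mice by their labels.

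No autophagy core transcript passed the test for a difference between colistin and saline kidneys. Of the 15 probes 14 passed the detection filter (detected on at least 4 of the 12 arrays), and each of the 10 genes kept at least 1 probe. The probe that did not pass, the dimmest of 3 for Becn1, was detected on 0 of 12 arrays. Of the 14 kept probes 0 were called by limma at an adjusted p under 0.05, where 0.457% of all 16179 kept probes were called. At an unadjusted p under 0.05 the count was also 0 of 14, where 10.9% of all kept probes fell. That count was 2 with median scaling (the brighter Becn1 and Map1lc3a probes), where 16.2% of all kept probes fell. On BeadChip 2 alone it was 2 (Atg7 and Sqstm1), where 20.7% of all kept probes fell. Without saline mouse 1 it was 1 (the brighter Becn1 probe), where 20.1% of all kept probes fell. By an exact permutation test over the mice the smallest p was 0.0671, that of the brighter Becn1 probe. The groups overlapped at all 14 probes; they did not overlap at 1.0% of all kept probes.

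The mean was higher in colistin kidneys at 11 kept probes and lower at 3. With median scaling of the arrays it was higher at 13, and without saline mice 2 and 5 at 7. By the brightest probe of each gene it was higher at 8 genes and lower at 2. The 11 include the dimmer Becn1 probe, which passed the filter through the colistin group (detected in 1 saline and 4 colistin kidneys). The changes (colistin minus saline, log2 scale) ran from -0.29 to 0.27. The median over the 10 genes, each by its brightest probe, was 0.08, and the median over all kept probes was 0.01. The core median ran from 0.029 (without saline mouse 5) to 0.13 (without saline mouse 3) with 1 mouse left out, and was 0.020 without saline mice 2 and 5. All 14 intervals (95%, limma) included 0, and 11 lay within 0.5 of it on both sides. Their outermost bounds were 1.59-fold lower, at Map1lc3b, and 1.48-fold higher, at Becn1, so changes within these bounds were not excluded at these 2 genes. An interval that includes 0 does not show that the groups were alike.

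**Figure D1:**
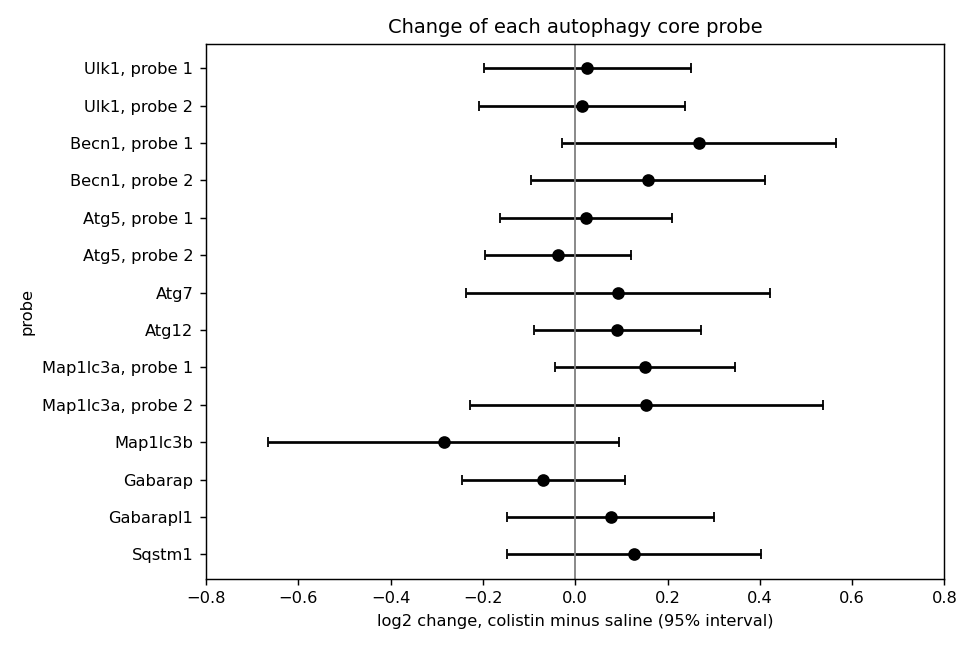
Change of each of the 14 kept probes on the log2 scale, colistin minus saline, as points with 95% limma intervals (6 mice per group). Every interval crosses 0; the points run from -0.29 (Map1lc3b) to 0.27 (Becn1, probe 1).

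Initiation was read through the kinase gene Ulk1 and the scaffold gene Becn1. Ulk1 (chromosome 5), which encodes the kinase that nutrient and energy signals control, had 2 probes. At the brighter one the log2 signal was 8.03, 8.21 and 8.47 in saline kidneys (lowest, median and highest) and 8.10, 8.22 and 8.59 in colistin kidneys. The groups covered nearly the same range, and only colistin mouse 4 lay above all saline mice. The change at this probe was 0.03 ± 0.11 (SE; adjusted p = 0.931). The dimmer Ulk1 probe lay at 7.52 ± 0.19 (SD, n = 6) in saline and 7.54 ± 0.13 (SD, n = 6) in colistin kidneys, a change of 0.02 ± 0.10 (SE; adjusted p = 0.960).

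Becn1 (chromosome 11) encodes beclin 1, the scaffold of the lipid kinase complex that nucleates the autophagosome and a binding partner of Bcl2. Its brighter probe had the smallest p of the group. The log2 signal there was 5.91, 6.58 and 6.75 in saline kidneys and 6.64, 6.70 and 7.13 in colistin kidneys. All 6 colistin mice lay above the saline mean, but saline mice 1 and 3 lay within their range. The change was 0.27 ± 0.14 (SE), a 1.20-fold higher mean with a 95% interval from 0.981-fold to 1.48-fold, and it did not pass (adjusted p = 0.496). The lowest saline value was that of saline mouse 2 and the highest colistin value that of colistin mouse 4. Without saline mouse 2 the Becn1 change was 0.15, and without colistin mouse 4 it was 0.19. A dimmer Becn1 probe, detected in 1 saline kidney and 4 colistin kidneys, was at 0.16 ± 0.12 (SE; adjusted p = 0.611).

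The conjugation chain was read through Atg5, Atg7 and Atg12. Atg7 encodes the E1-like enzyme that activates both Atg12 and the LC3 and GABARAP proteins, and Atg12 is joined to Atg5 in the complex that attaches LC3 to the membrane. The promoter of Atg5 is shown because it was the 1 of 6 core-gene promoters read from the RefSeq table (GRCm38.p6) whose 250 bases before the start held the E-box CACGTG. The table's Atg7 window belongs to a start 27969 bases inside the gene and was not used. This motif is the core of the element bound by Tfeb, a transcription factor that drives autophagy and lysosome genes. It was searched on both strands, reads the same on each, and occurred in 6.02% of all 32851 windows in the table at the same length. In the same windows the core of the antioxidant response element, TGACNNNGC, and the FOXO site GTAAACA were searched on both strands. Each was in 0 of 6 core-gene windows and in 10.2% and 3.17% of all windows. These matches are descriptions of the letters, not measured sites. The start used for Atg5 lies 17 bases inside the annotated gene. The sequence (chr10:44268089-44268338) runs 5′ to 3′ on the plus strand with the E-box in capitals. The E-box begins 14 bases before the start used, and so lies within the gene as annotated.
Atg5: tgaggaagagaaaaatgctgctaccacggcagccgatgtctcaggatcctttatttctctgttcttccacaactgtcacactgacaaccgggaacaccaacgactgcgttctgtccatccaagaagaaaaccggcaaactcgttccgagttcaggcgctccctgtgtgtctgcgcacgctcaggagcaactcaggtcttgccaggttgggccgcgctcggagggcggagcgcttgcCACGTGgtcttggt

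Atg5 (chromosome 10), the gene of the E-box window shown, was among the most even of the group. Its brighter probe read 9.63, 9.67 and 9.88 in saline kidneys and 9.55, 9.70 and 9.90 in colistin kidneys, a change of 0.02 ± 0.09 (SE; adjusted p = 0.924). Its other probe gave -0.04 ± 0.07 (SE; adjusted p = 0.854), with the narrowest interval of all 14 (half-width 0.16). The probe annotated Apg5l, an older name of the same gene that the symbol rule does not take, was at 0.09 ± 0.10 (SE; adjusted p = 0.702). All 3 readings of Atg5 thus lay within 0.10 of 0.

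The log2 signal of Atg7 was 4.76, 5.09 and 5.76 in saline kidneys and 5.07, 5.29 and 5.48 in colistin kidneys, and the probe was detected in all kidneys but 1, a saline one. The saline mice spanned the whole colistin range, and the change of 0.09 ± 0.15 (SE; adjusted p = 0.819) was smaller than the spread within the saline group (SD 0.38). With 1 mouse left out the Atg7 change ran from 0.00540 (without saline mouse 5) to 0.21 (without saline mouse 1). Atg12, the ubiquitin-like partner of Atg5, read 9.26, 9.30 and 9.45 in saline and 9.22, 9.45 and 9.60 in colistin kidneys. For Atg12, 3 colistin mice lay above all saline mice and 1 below them. The change was 0.09 ± 0.09 (SE; adjusted p = 0.676).

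**Figure D2:**
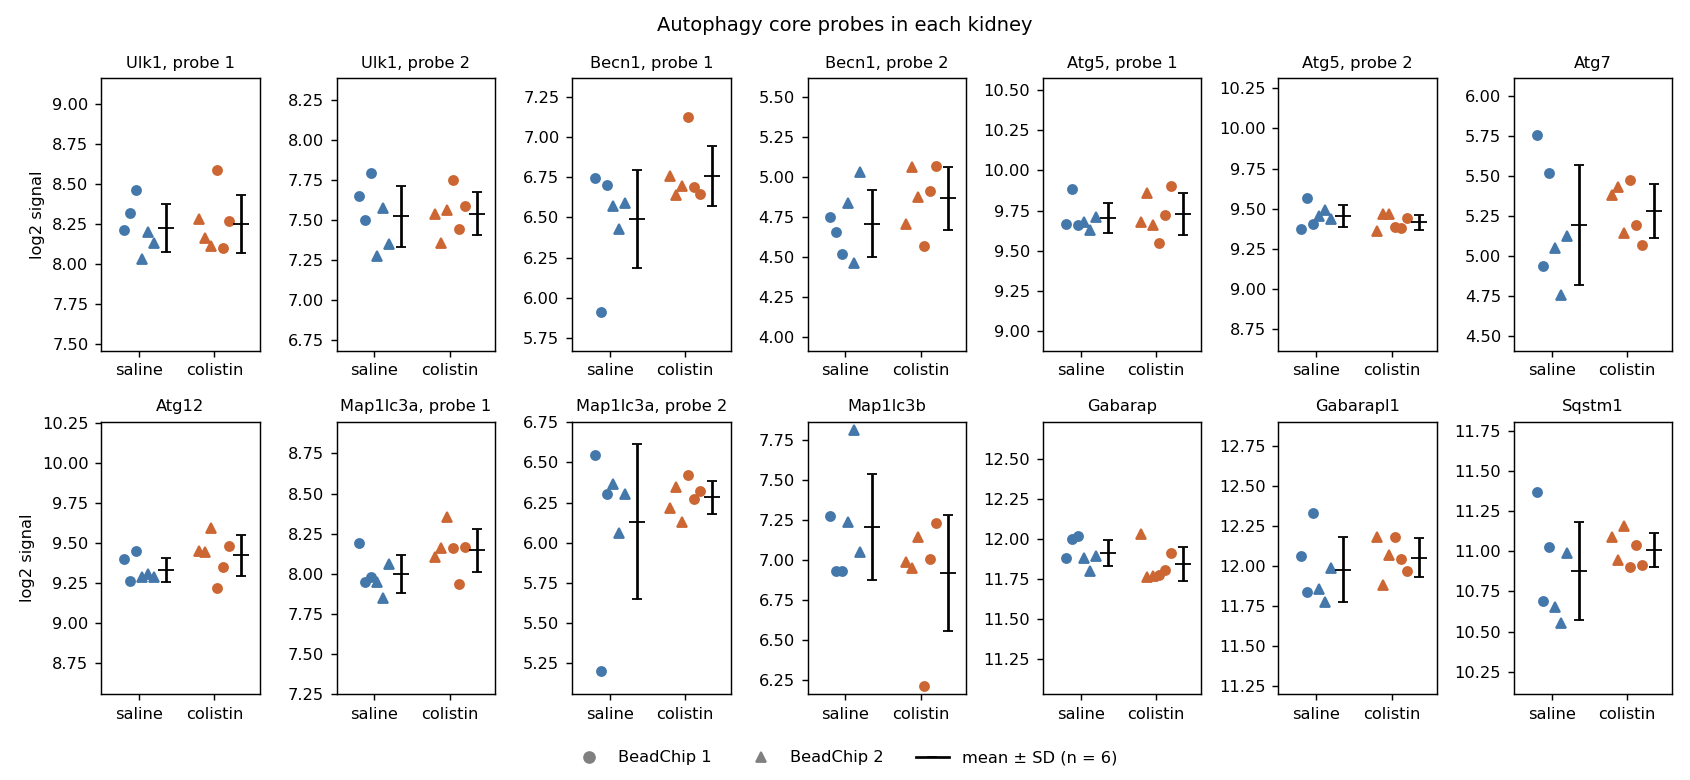
Log2 signal of the 14 kept probes in each mouse, 1 panel per probe with a common axis span; circles are BeadChip 1, triangles BeadChip 2, and bars the mean ± SD of 6 mice. Saline and colistin mice overlap in every panel, and the lone low saline point at Becn1, probe 1 (5.91) and at Map1lc3a, probe 2 (5.20) is saline mouse 2.

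The ubiquitin-like proteins that coat the autophagosome were read through 4 genes. Map1lc3a and Map1lc3b encode LC3A and LC3B, whose lipid-bound forms are the usual marker of autophagosomes, and Gabarap and Gabarapl1 encode members of the sister family, which act at later steps. Map1lc3b had the lowest change of the group. Its signal was 6.93, 7.15 and 7.81 in saline kidneys and 6.21, 7.00 and 7.23 in colistin kidneys. Only 1 of 6 colistin mice lay above the saline mean, and colistin mouse 4 lay below all other mice. The mean was 1.22-fold lower in colistin kidneys (log2 change -0.29 ± 0.18, SE; adjusted p = 0.555). Without colistin mouse 4 the Map1lc3b change was -0.14, and without saline mouse 5, the highest saline value, it was -0.16. Before normalization, the Map1lc3b signal of saline mouse 5, the dimmest array, was 190. The raw group means were 206 in saline and 210 in colistin kidneys.

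Map1lc3a (chromosome 2) leaned the other way, without passing. At its brighter probe the signal was 7.85, 7.96 and 8.19 in saline and 7.93, 8.16 and 8.35 in colistin kidneys. There 5 of 6 colistin mice lay above the saline mean and 1 above all saline mice. The change was 0.15 ± 0.09 (SE; adjusted p = 0.543). The dimmer Map1lc3a probe also gave 0.15 ± 0.18 (SE; adjusted p = 0.738), but this value rested on saline mouse 2, at 5.20 against 6.06 or more in the other saline mice. Without that mouse the change at the dimmer probe was -0.03. A difference between Map1lc3a and Map1lc3b in their response was not tested.

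Gabarap (chromosome 11) read 11.80, 11.89 and 12.02 in saline and 11.76, 11.80 and 12.03 in colistin kidneys. For Gabarap, 3 colistin mice lay below all saline mice and 1 above them, and the change was -0.07 ± 0.08 (SE; adjusted p = 0.744). Gabarapl1 (chromosome 6), a gene that FOXO transcription factors induce in starving muscle of mice, read 11.77, 11.92 and 12.33 in saline and 11.88, 12.05 and 12.18 in colistin kidneys. Every colistin mouse lay inside the saline range, and the change was 0.08 ± 0.11 (SE; adjusted p = 0.773).

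Sqstm1 (chromosome 11) encodes p62, the receptor that carries ubiquitin-tagged cargo to LC3 and is itself broken down in the lysosome. Its gene is also induced by the oxidative stress factor Nrf2. The Sqstm1 signal was 10.55, 10.84 and 11.37 in saline and 10.90, 10.99 and 11.16 in colistin kidneys. All 6 colistin mice lay above the saline mean but inside the saline range, whose ends were saline mice 5 and 1. The change was 0.13 ± 0.13 (SE; adjusted p = 0.700), and without saline mice 2 and 5 it was -0.00226. The raw Sqstm1 signal, before normalization, ran from 938 in saline mouse 5, the dimmest array, to 2947 in saline mouse 1.

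The change was compared within each BeadChip, 3 mice of each group on each. At 6 of the 14 kept core probes it had the same sign on both, and at 63.4% of all kept probes. Becn1 (brighter probe) was at 0.37 ± 0.27 (SE) on BeadChip 1 and 0.17 ± 0.10 (SE) on BeadChip 2, and Map1lc3b at -0.23 ± 0.27 (SE) and -0.34 ± 0.18 (SE). Sqstm1 was at -0.08 ± 0.21 (SE) on BeadChip 1 and 0.33 ± 0.13 (SE) on BeadChip 2, and Atg7 at -0.16 ± 0.24 (SE) and 0.34 ± 0.13 (SE). The interaction of treatment and BeadChip was called at 0 of the 14 probes (limma; adjusted p = 0.9998 at each) and at 0% of all kept probes. At an unadjusted p under 0.05 it was 0 of 14, where 2.55% of all kept probes fell. The differences between BeadChips of Sqstm1 (0.41 ± 0.25, SE) and Atg7 (0.50 ± 0.29, SE) therefore did not pass.

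**Figure D3:**
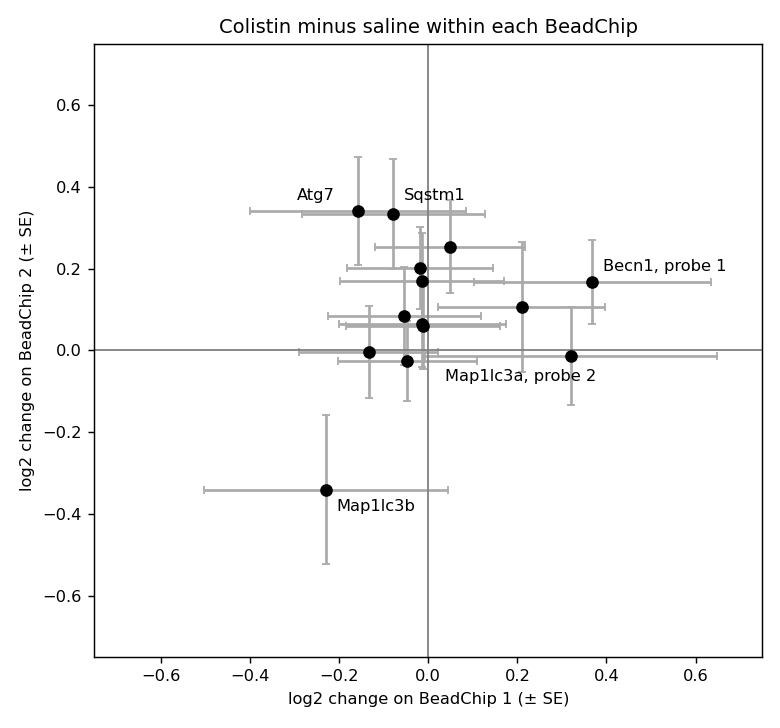
Log2 change, colistin minus saline, of the 14 kept probes on BeadChip 1 (horizontal) and BeadChip 2 (vertical), with SE bars (3 mice per group on each). Becn1 lies above 0 and Map1lc3b below 0 on both, while Sqstm1 and Atg7 lie below 0 on BeadChip 1 and above 0 on BeadChip 2.

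The spread among mice was of the same order as the changes. The median SD of the 14 probes was 0.20 among saline and 0.13 among colistin kidneys, and over all kept probes 0.25 and 0.16. Saline mouse 5 was the lowest of the 12 mice at 5 of the 14 probes, and it was the lowest at 12.0% of all kept probes. Saline mouse 1 was the highest at 3 of the 14, and at 14.5% of all kept probes. By the closeness of their values over the 12 mice, the probes most like the brighter Becn1 probe were those of Ppp5c, Akap8l and Tmem116. Each was centred on its own mean, and the root mean square differences were 0.07, 0.08 and 0.08 on the log2 scale. These 3 genes were chosen for that closeness among 8188 probes with an SD at least 0.8 times that of the Becn1 probe. They were not called either (changes of 0.20, 0.29 and 0.22).

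The 6 further lists of autophagy and lysosome genes held 78 genes, of which 66 were measured, and 0 of 66 were called at an adjusted p under 0.05 (4 at an unadjusted p under 0.05, where 10.9% of all kept probes fell). Their median change was 0.03. Of 11 initiation and nucleation genes the median was 0.07, with Atg2a, a lipid transfer protein, at 0.20 ± 0.16 (SE) and Atg9a, a membrane protein of the vesicles that seed the autophagosome, at 0.12 ± 0.11 (SE). Other Atg2a probes lay at 0.10 and -0.02. Of 6 conjugation genes the median was 0.04, with the LC3-cleaving protease gene Atg4d at 0.22 ± 0.15 (SE) at its brighter probe and -0.11 at its other one, and Atg16l1, the partner of the Atg12 and Atg5 complex, at 0.10 ± 0.09 (SE).

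Of 9 cargo receptor genes the median was -0.000338. Calcoco1, an LC3-binding receptor, was at 0.33 ± 0.17 (SE) and Fundc1, a mitophagy receptor, at -0.24 ± 0.15 (SE), neither of which passed. Genes for fusion with the lysosome (11 measured) had a median of 0.03, with the adaptor gene Plekhm1 at 0.18 ± 0.16 (SE) and Tecpr1 at -0.09 ± 0.09 (SE). Lysosomal genes (10 measured) had a median of 0.01. Of these the protease gene Ctsl was at -0.21 ± 0.10 (SE; adjusted p = 0.445) and Mcoln1, the calcium channel of the lysosome membrane, at 0.25 ± 0.11 (SE; adjusted p = 0.448).

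Among 19 upstream regulators, 0 were called and the median was 0.04, but the sestrin genes lay at both ends. Sestrins restrain mTORC1, the kinase complex that holds Ulk1 in check. Sesn1 was at 8.43 ± 0.26 (SD, n = 6) in saline and 7.92 ± 0.09 (SD, n = 6) in colistin kidneys, a change of -0.51 ± 0.12 (SE; adjusted p = 0.0755), and all 6 colistin mice lay below the saline mean. The other Sesn1 probe was at -0.37 ± 0.14 (SE; adjusted p = 0.363). Without saline mouse 1 the Sesn1 change was -0.60 and passed (adjusted p = 0.00551). That fit called 330 of all kept probes, against 74 with all mice. With any other 1 mouse left out Sesn1 did not pass. Sesn2 was at 5.62 ± 0.44 (SD, n = 6) in saline and 6.14 ± 0.23 (SD, n = 6) in colistin kidneys, a change of 0.52 ± 0.18 (SE; adjusted p = 0.313), with 6 of 6 colistin mice above the saline mean. Tfeb and Mitf were not measured, as none of their probes passed the detection filter.

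Of other targets of Nrf2, 6 of 9 were measured and 0 were called, with a median of 0.15. At an unadjusted p under 0.05 (limma) there were 2, where 10.9% of all kept probes fell. Their changes ran from -0.59 to 1.17, with 5 above 0 and 1 below it. Hmox1, which encodes heme oxygenase, was at 1.17 ± 0.46 (SE, adjusted p = 0.377), with an SD of 1.26 among colistin mice. Srxn1, which encodes sulfiredoxin, was at 0.23 ± 0.10 (SE, adjusted p = 0.416). Other Srxn1 probes both lay at 0.34 and were not called.

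**Figure D4:**
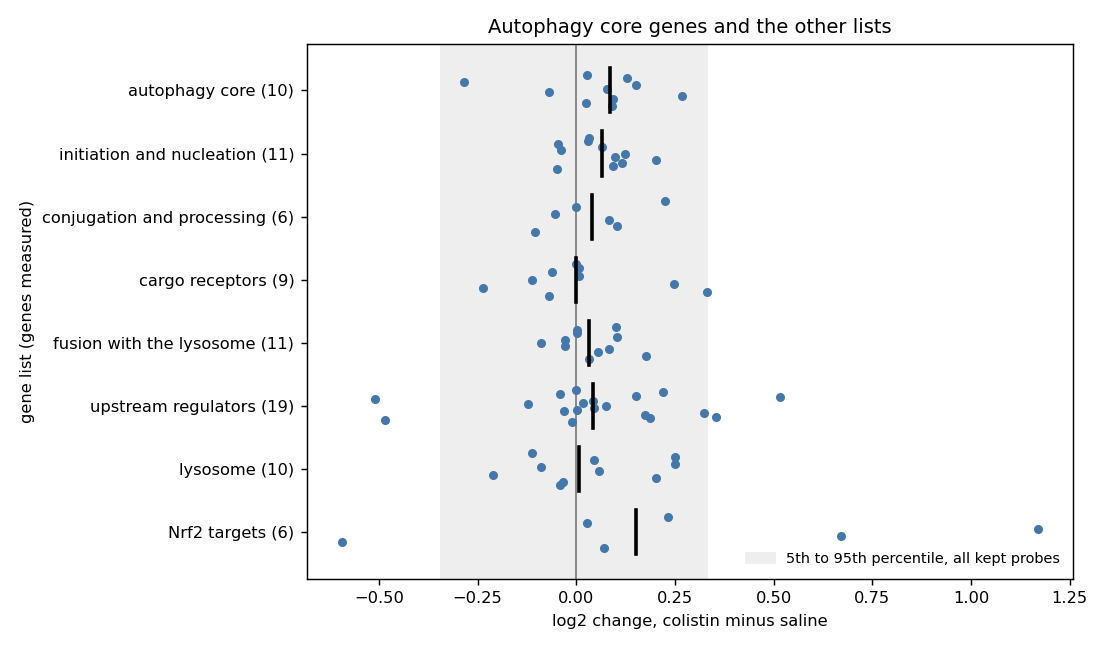
Log2 change, colistin minus saline, of each measured gene (point, by its brightest kept probe) in the autophagy core genes and 7 other lists, with each list's median as a black bar. The grey band holds the 5th to 95th percentile of all kept probes (-0.34 to 0.33); all 10 core genes lie inside it.

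Markers of the kidney's cell types were read beside the core genes, and Pvalb of the distal convoluted tubule was the only one called (-1.13 ± 0.19, SE; adjusted p = 0.0136). None of 5 measured endothelial, 5 macrophage and 4 fibroblast markers was called, and their medians were -0.46, -0.48 and -0.42. At an unadjusted p under 0.05 (limma) there were 4, 3 and 2 of them, where 10.9% of all kept probes fell. The change was above 0 at 0 endothelial, 1 macrophage and 1 fibroblast marker. The summed signal of the endothelial markers ran from 1125 to 3193 in saline and 1418 to 2001 in colistin kidneys, that of the macrophage markers from 349 to 565 and 284 to 373, and that of the fibroblast markers from 875 to 2307 and 566 to 895. The 7 proximal tubule markers had a median of 0.03, with sums from 35558 to 50328 and 41676 to 48781. Cfd, the 1 adipocyte marker of 4 that was measured, had a signal of 3186 in saline mouse 1 and 584 in colistin mouse 3, and from 20.6 to 129 in the other mice. It was detected in 3 saline and 4 colistin kidneys. The signals and sums of this paragraph are normalized values taken off the log2 scale, with the offset of 16 included, so the lowest Cfd values lie near the floor. The summed signal of the 3 erythroid markers ran from 8820 to 39434 in saline and 9935 to 27469 in colistin kidneys. In whole kidney, fewer cells of a type and less RNA per cell cannot be told apart, and the part of cell composition in the core gene values was not tested.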

How the data were processed

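The labels of 12 arrays gave 6 saline and 6 colistin mice. Per the file headers, the authors gave each probe a mean bead intensity and a detection p-value on every array. The intensities are linear and reach down to 74.7, so background had not been subtracted. The authors' normalized intensities were used as an alternative: they kept the order of the raw signals (Spearman rho 1 on each array), had medians from 3.39 to 3.42 and reached below 0; their centring is unknown. The submitters' processing notes list GenomeStudio and Partek.

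Background correction and quantile normalization were by neqc (limma 3.58.1 under R 4.3.3; offset 16, which compresses changes of dim probes). Probes with detection p under 0.01 on at least 4 of 12 arrays were kept (16179). Groups were compared with lmFit and eBayes in two-sided tests, and p-values were adjusted over the kept probes (Benjamini-Hochberg). Single values had an exact permutation test, two-sided, over 924 assignments of mice (smallest p 0.00216). The fit was tested on simulated data in which 200 of 16179 probes were changed. It called 51% of the changes of 0.5 and 91% of the changes of 1 on the log2 scale, with 11 false calls. Smaller changes were not simulated. Core probes were taken by array symbol or Illumina gene name; other genes by current symbols and synonyms (GRCm38.p6 names), each by its brightest kept probe. From each other list, up to 4 called members were named, or else the 2 with the smallest p. Every core probe is reported, and 3 probes are named for their likeness to the core probe with the smallest p. Signals of different probes were compared only to order the probes of 1 gene, and added only in the marker sums. In those sums the brightest probes weigh most. The number of arrays limits the precision. Members and lists were chosen with earlier results of these data known. Alternatives covered background, normalization, source of values, filter, BeadChip, replicate number, test and left-out mice. Saline and colistin mice of the same number never shared a BeadChip, and the correlations of their deviations from the group means ran from -0.26 to 0.12, so the numbers were not taken as pairs.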

Additional observations from a re-analysis of the deposited data

Results flagged for a closer look

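In 28 groups of 6 mice (14 kept core probes in 2 groups), 5 had a mouse far from the others by Dixon's ratio. For separate groups chance gives about 1 in 20. The same 12 mice were read at all 14 probes, so these groups are not separate draws and the count cannot be set against that rate. Colistin mouse 4 was far above the other colistin mice at the brighter probes of Ulk1 (8.59) and Becn1 (7.13) and far below them at Map1lc3b (6.21). Saline mouse 2 was far above the other saline mice at the brighter Atg5 probe (9.88) and far below them at the dimmer Map1lc3a probe (5.20).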

How the results depend on the processing

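No autophagy core probe was called under any of the alternatives tested. With BeadChip 1 alone the change turned to -0.013 and -0.053 at the Ulk1 probes, -0.012 at the brighter Atg5 probe, -0.16 at Atg7, -0.019 at Atg12, -0.014 at Gabarapl1 and -0.078 at Sqstm1, and the core median to -0.017. Without saline mice 2 and 5 it was -0.080 at Atg7, -0.10 at the dimmer Map1lc3a probe, -0.00732 at Gabarapl1 and -0.00226 at Sqstm1. The dimmer Map1lc3a probe was at -0.013 on BeadChip 2 and -0.029 with array weights. In the authors' gene-level table, normalized separately, Atg5 was at -0.00370, Becn1 at 0.022, Map1lc3a at 0.061, Map1lc3b at -0.094 and Atg7 at 0.00501. How its rows were formed from probes was not examined, and by the symbol rule Map1lc3b and Atg7 had 1 probe each. With median scaling the dimmer Atg5 probe was at 0.18, Gabarap at 0.063, the brighter Becn1 probe at 0.49 and Map1lc3b at -0.030; this scaling moved the median of all kept probes from 0.01 to 0.20 and the split of calls from 52 higher and 22 lower to 60 and 4. With each mouse left out in turn, the changes that turned ran from -0.041 to 0.073 at the brighter and -0.034 to 0.069 at the dimmer Ulk1 probe, -0.011 to 0.060 at the brighter Atg5 probe and -0.033 to 0.24 at the dimmer Map1lc3a probe.

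Calls over all kept probes, 74 in all, numbered 45 with an offset of 50, 25 without background correction, 37 with the authors' values, 33 without a filter, 27 with detection on all arrays, 0 and 298 on BeadChips 1 and 2, 36 with a replicate block, 471 with array weights, 1765 at an unadjusted p under 0.05 and 38 to 330 with 1 mouse left out (330 without saline mouse 1). The replicate block changed no core call. Of the related genes, 1 (Sesn1) was called with array weights, and 0 to 1 with 1 mouse left out.

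Median changes with median scaling were 0.26 (core), 0.29 (initiation), 0.23 (conjugation), 0.12 (cargo receptors), 0.26 (fusion), 0.28 (regulators) and 0.14 (lysosome). On BeadChip 1 they were -0.00463 (initiation) and -0.039 (conjugation). With 1 mouse left out the medians ran from 0.031 to 0.086 (initiation), -0.00311 to 0.082 (conjugation), -0.052 to 0.00424 (cargo receptors), 0.00276 to 0.052 (fusion), 0.029 to 0.081 (regulators), -0.039 to 0.044 (lysosome) and 0.12 to 0.20 (Nrf2 targets). The Nrf2 target median was 0.024 without saline mice 2 and 5. The cause of these moves was not tested. Atg7 and the dimmer Becn1 probe were not detected on all arrays.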
